A study of Mus musculus with 9 samples.

Results

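Ovaries of mice given cyclophosphamide (CTX) were compared with ovaries of untreated mice (UT) across gene families taken by gene symbol. The comparison draws on 6 of the 9 libraries of the study, 3 titled CTX and 3 titled UT, and on the 19260 of 19517 genes to which the authors' deposited table gives a value for this pair of groups. All the mice, UT included, were female BALB/c nude mice carrying xenografts of MDA-MB-231, an established human breast cancer cell line, and RNA was taken from ovarian tissue. The treatment label of the UT group is none and that of the CTX group is cyclophosphamide. No dose, time of sampling or age of the mice is stated in the labels. The study concerns ovarian damage by this drug, so the comparison asks which genes differ between ovaries with and without it.

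Cyclophosphamide is a prodrug that liver enzymes turn into an alkylating agent, which crosslinks DNA and kills dividing cells, among them lymphocytes and the granulosa cells of growing follicles. The ovary holds oocytes within follicles lined by granulosa and theca cells, set in a stroma with vessels, resident leukocytes and a surface epithelium. Nude mice lack a thymus and have few mature T cells, while their natural killer cells, B cells and myeloid cells remain. Macrophage, MHC class II, p53 and cell cycle genes are left out of the family accounts below.

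The table holds differences between groups and no value for a single library. The depth of each library is therefore unknown here, the spread of single ovaries and the overlap of the groups were not examined, and the level of ovarian marker genes was not analysed. Each value is the log2 fold change of CTX over UT, with a standard error (SE) worked back from its p-value, and a log2 fold change of 1 is a doubling. A gene is called, and said to have risen or fallen, where the adjusted p of the authors' DESeq2 fit over all genes is under 0.05. The headers do not say which group is the numerator, and every direction given here would be the other way round if UT were. The labels number the libraries as replicates without naming separate mice, so the spread behind the p-values is that of these samples and may be partly technical.

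Of the 19260 genes, 249 were called, which is 1.29% of those tested. Of all genes tested, 0.472% were called higher (91 genes) and 0.82% lower (158 genes). The share of all genes at an unadjusted p under 0.05 by DESeq2 was not counted. Counts of family members at that cut-off below therefore stand without a share over all genes, and whether they exceed it was not tested. Genes called higher had a median of 0.53 and genes called lower a median of -0.86. The left-out lists held 30 of the called genes. Another 104 belonged to a symbol family, 25 of them higher and 79 lower, and 115 to neither. Of 103 families with a measured member, 41 had at least 1 called gene. The median over all genes was -0.03, and 44.2% of genes lay above 0. With that median set to 0, the calls were 156 higher and 134 lower, so that 53.8% of calls were higher instead of 36.5%. No gene called as deposited changed sign under that setting.

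**Figure D1:**
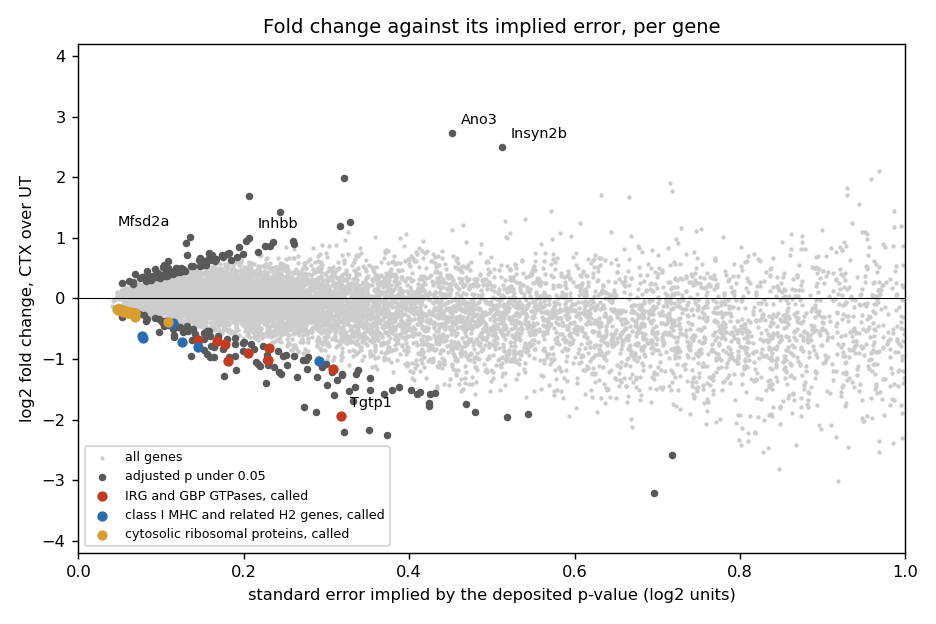
Log2 fold change of CTX over UT (vertical axis) against its implied standard error (horizontal axis, log2 units) for the 15556 genes with a standard error of at most 1; dark and coloured points are the 241 called genes among them. Ano3 and Insyn2b lie highest, the called IRG and GBP genes lie between -1.95 and -0.68, and the called ribosomal protein genes lie just below 0 at the smallest errors.

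Outside the left-out lists, the 15 genes with the smallest p-values among those called higher were of many kinds. Mfsd2a, a membrane transporter of lysophospholipids, was at 1.01 (SE 0.14, adjusted p = 3.7e-10) per the authors' deposited table. Gdnf, a growth factor that signals through the Ret receptor kinase, was at 0.91 (SE 0.13, adjusted p = 7.81e-09) per the authors' deposited table. The authors' deposited table gives 2.73 (SE 0.45) for Ano3, a membrane protein of the anoctamin family, and 2.51 (SE 0.51) for Insyn2b, of a small family of inhibitory synapse factors. Ano3 and Insyn2b had the largest rises of the 15. The smallest was that of Fscn1, an actin-bundling protein, at 0.25 (SE 0.05) per the authors' deposited table. The others included the ribosomal S6 kinase gene Rps6ka2 at 0.40 (SE 0.07), the semaphorin receptor gene Plxnc1 at 0.55 (SE 0.10) and the exocyst subunit gene Exoc4 at 0.48 (SE 0.09) per the authors' deposited table. Smc2, a core subunit of condensin, was at 0.52 (SE 0.10), and Cpt1c, a carnitine palmitoyltransferase isoform of the nervous system, at 0.94 (SE 0.20) per the authors' deposited table.

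Outside the same lists, the 15 lowest p-values among falls were mostly of immune genes. The authors' deposited table lists H2-K1 first, at -0.66 (SE 0.08, adjusted p = 8.06e-13), and its position is chr17:33996017-34000347 on GRCm38. Outside the immune genes, Col9a2, a chain of collagen IX, was at -0.95 (SE 0.14, adjusted p = 7.81e-09) per the authors' deposited table. Aqp1, a water channel of endothelium and mesothelium, was at -0.97 (SE 0.16, adjusted p = 1.25e-06) per the authors' deposited table. Gpx3, a secreted glutathione peroxidase, fell by 0.97 on the log2 scale (SE 0.18) and Apoe, a lipid carrier made by macrophages and steroid-producing cells, by 0.56 (SE 0.10) per the authors' deposited table. Each of these 4 falls was between 1.47-fold and 1.96-fold.

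Genes that interferons induce were lower in CTX ovaries across several families. Interferons are cytokines whose receptors activate STAT proteins and interferon regulatory factors. The immunity-related GTPases (IRG) and the guanylate-binding proteins (GBP) are large GTPases that coat and break the vacuoles of intracellular microbes, and both are strongly induced by interferon gamma. Of the 16 IRG and GBP genes measured, 9 fell, against 0.82% of all genes, and all 16 were below 0, with a median of -0.78. At an unadjusted p under 0.05, 15 of the 16 were lower.

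Among the IRG genes, 4 of 6 fell. Tgtp1, named as a T-cell-specific GTPase, was at -1.95 (SE 0.32, adjusted p = 1.17e-06) per the authors' deposited table. This 3.86-fold fall was the largest in the group, and which cells expressed Tgtp1 was not examined. Iigp1, a well-studied IRG protein, was at -1.03 (SE 0.18, adjusted p = 1.01e-05) per the authors' deposited table. Among the GBP genes, 5 of 10 fell, among them Gbp9 at -0.68 (SE 0.15, adjusted p = 0.000768) and Gbp4 at -1.01 (SE 0.23, adjusted p = 0.00255) per the authors' deposited table. The mouse GBP genes lie in 2 clusters. Of the 5 in the cluster at chr5:105014150-105293698, 4 fell, and of the 5 in the cluster at chr3:142493978-142638008, only Gbp2 did, at -0.82 (SE 0.23) per the authors' deposited table. Whether the clusters differ was not tested. Gbp7, in the second cluster, was at -0.03 (SE 0.12) per the authors' deposited table, with the value nearest 0 of the 16. Neighbouring GBP genes, and Tgtp1 with Tgtp2, are near-identical copies whose reads the counting may have split between them, so the values of single members are uncertain.

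Promoters of this family are shown because its members lay on the same side of 0. RefSeq promoter windows of 250 bases before to 50 bases after the start (GRCm38.p6) were found for 10 of the 16 genes. The motif of interferon response elements was searched on both strands as GAAA, any 2 bases, then GAAA. All 10 genes held it, against 575 of the 15204 tested genes with a window (3.78%). Of the 9 genes that fell, only 4 had a window. The 100 bases before the start are given 5′ to 3′ on the gene's strand for 6 genes, with the motif in capitals; Gbp2 and Gbp7 hold it on the opposite strand.
Tgtp1: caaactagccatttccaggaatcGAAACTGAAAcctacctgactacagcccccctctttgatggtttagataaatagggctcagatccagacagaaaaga
Tgtp2: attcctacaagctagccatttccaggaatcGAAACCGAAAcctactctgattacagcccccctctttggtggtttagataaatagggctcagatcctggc
Igtp: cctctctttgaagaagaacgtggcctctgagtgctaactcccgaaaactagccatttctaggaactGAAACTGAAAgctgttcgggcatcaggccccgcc
Irgm2: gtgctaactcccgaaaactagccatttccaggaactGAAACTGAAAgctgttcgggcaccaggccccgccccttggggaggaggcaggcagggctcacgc
Gbp2: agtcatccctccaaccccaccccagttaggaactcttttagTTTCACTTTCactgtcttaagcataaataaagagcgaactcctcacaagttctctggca
Gbp7: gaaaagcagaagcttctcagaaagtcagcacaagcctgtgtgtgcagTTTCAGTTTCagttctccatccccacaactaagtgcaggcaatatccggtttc
These stretches lie at chr11:48992247-48992346, reverse strand (Tgtp1), chr11:49064213-49064312, reverse strand (Tgtp2), chr11:58199456-58199555, forward strand (Igtp), chr11:58214877-58214976, forward strand (Irgm2), chr3:142620563-142620662, forward strand (Gbp2) and chr3:142530236-142530335, forward strand (Gbp7). The motif begins 77 bases before the start in Tgtp1 and 70 in Tgtp2, 2 copies whose printed stretches are alike over much of their length. It begins 34 bases before the start in Igtp, 64 in Irgm2, 59 in Gbp2 and 53 in Gbp7. Tgtp2, Igtp and Gbp2 fell, at -0.89 (SE 0.21), -0.70 (SE 0.17) and -0.82 (SE 0.23) per the authors' deposited table, while Irgm2 was at -0.53 (SE 0.18, adjusted p = 0.109) and did not pass. Gbp7 holds the motif at much the same distance and was at -0.03 (SE 0.12) per the authors' deposited table, so these letters were present in windows of genes that fell and of a gene near 0. Tgtp2, Igtp, Irgm2, Gbp2 and Gbp7 were named after their values were seen.

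Class I MHC molecules present peptides to CD8 T cells, and their heavy chains pair with beta-2 microglobulin. Of 25 H2 genes outside class II, 7 fell (28%, against 0.82% of all genes). Of the 25, 24 were below 0 (median -0.66), and the exception was H2-Ke6, which encodes an enzyme and shares only the symbol. H2-Q4 was at -0.63 (SE 0.08, adjusted p = 4.42e-12) and H2-T23, the mouse Qa-1 gene, at -0.71 (SE 0.13, adjusted p = 1.04e-05) per the authors' deposited table. H2-D1, a classical heavy chain as H2-K1 is, was at -0.81 (SE 0.14, adjusted p = 1.31e-05) per the authors' deposited table. B2m, the shared light chain, was at -0.61 (SE 0.12, adjusted p = 7.37e-05) per the authors' deposited table. H2-K1, H2-D1 and B2m thus had similar values, with overlapping 95% intervals. H2-Q8 is listed at -22.11 (SE 3.91) per the authors' deposited table, a value too imprecise to read as a size. Class I genes are near-identical copies, and reads may have been split among them. How well the class I genes of BALB/c mice match the GRCm38.p6 build was not examined, so values of single members are uncertain. Of the 18 with a promoter window, 2 held the interferon motif.

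**Figure D2:**
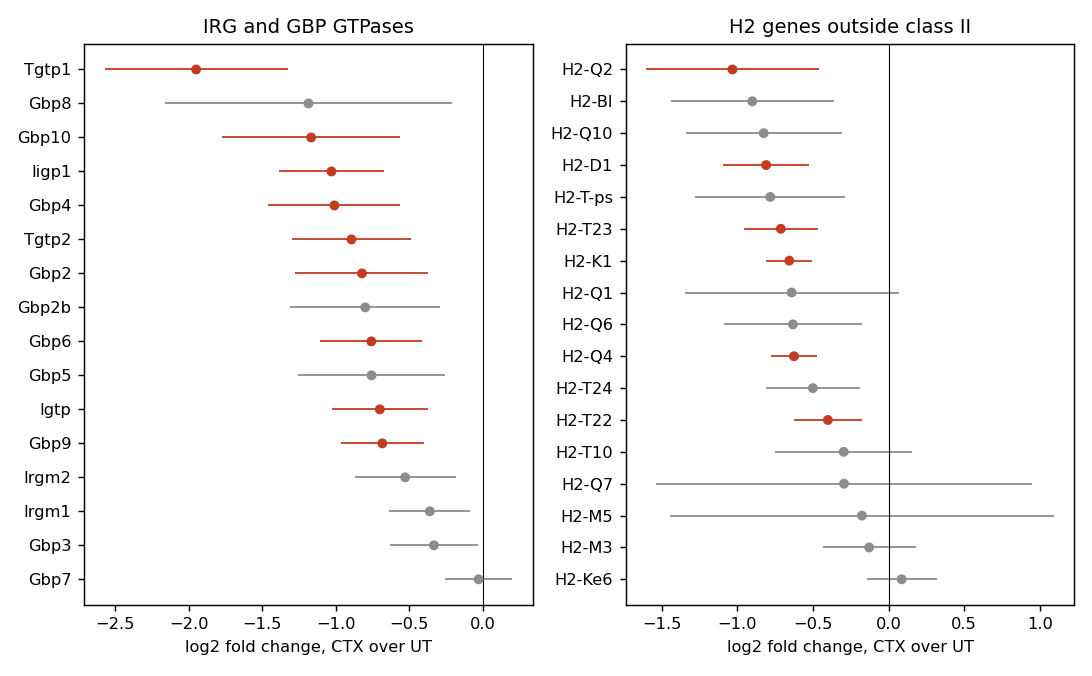
Log2 fold change of CTX over UT (horizontal axes) with 95% intervals from the implied standard error, for the 16 IRG and GBP genes (left) and the 17 of 25 H2 genes outside class II with a standard error of at most 1 (right); red marks called genes. Every IRG and GBP value is below 0, from Tgtp1 at -1.95 to Gbp7 at -0.03, and the class I values cluster between -1.03 and -0.13, with H2-Ke6 above 0.

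Other interferon-inducible genes also included falls. Of 48 Ifi, Ifit, Oas and related genes, 5 fell (10.4%, against 0.82% of all genes), 41 were below 0 and the median was -0.58. At an unadjusted p under 0.05, 16 were lower and 0 higher by DESeq2. Ifi44 was at -1.18 (SE 0.19, adjusted p = 9.99e-07) and its neighbour Ifi44l at -1.25 (SE 0.32, adjusted p = 0.0138) per the authors' deposited table. Ifi47, a GTPase of the IRG kind under another symbol, was at -0.79 (SE 0.16, adjusted p = 0.000296) per the authors' deposited table. Oasl2, of the oligoadenylate synthetase family, was at -0.67 (SE 0.15, adjusted p = 0.00246) per the authors' deposited table. Mndal, a gene of the interferon-inducible p200 cluster whose symbol the pattern does not take, was at -0.85 (SE 0.15) per the authors' deposited table. The interferon motif was held by 22 of the 41 genes with a promoter window (53.7%), and by 0 of the 4 called members with one.

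The transcription factors and regulators of this pathway held few calls in number. None of 9 interferon regulatory factors passed in DESeq2, all 9 were below 0 (median -0.56), and 5 were lower at an unadjusted p under 0.05. The closest were Irf5 at -0.85 (SE 0.26, adjusted p = 0.0659) and Irf1 at -0.28 (SE 0.09, adjusted p = 0.0916) per the authors' deposited table. Of 15 SOCS and STAT genes, which carry and restrain cytokine signals, 2 fell, 1 rose and the median was -0.02. That is 20% called, against 1.29% of all genes. Cish, a feedback inhibitor induced by STAT5, was at -1.01 (SE 0.23, adjusted p = 0.00215) per the authors' deposited table. Stat3, which transmits interleukin-6 signals, was at -0.38 (SE 0.11, adjusted p = 0.032) per the authors' deposited table. Socs7 rose by 0.29 (SE 0.08, adjusted p = 0.0324) per the authors' deposited table.

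Families of leukocyte receptors had medians below 0, small numbers of calls and often large errors. The share called was 21.4% for Fc receptors, 11.1% for Siglecs and 8.33% for Toll-like receptors, against 1.29% of all genes. It was 5% for chemokine receptors, 4.88% for interleukin receptors and 2.86% for chemokine ligands. Each of these shares rests on 1 to 3 genes. In bulk tissue, fewer cells of a type and less RNA per cell cannot be told apart. Il2rb, the beta chain of the interleukin-2 and interleukin-15 receptors of natural killer and T cells, was at -1.39 (SE 0.23, adjusted p = 1.17e-06) per the authors' deposited table. Il10ra, an interleukin-10 receptor chain, was at -1.12 (SE 0.22, adjusted p = 0.000154) per the authors' deposited table. These were the 2 falls among 41 interleukin receptor genes, whose median was -0.42. Siglec1, a sialic acid-binding receptor of macrophages, was the call among 9 Siglecs, all of them below 0, and stood at -0.92 (SE 0.16, adjusted p = 2.61e-06) per the authors' deposited table.

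Of 14 Fc receptor genes, which bind antibody or resemble genes that do, 3 fell and the median was -0.76. Fcrls, a microglia and macrophage gene, was at -1.25 (SE 0.24, adjusted p = 0.000143) per the authors' deposited table. Fcgrt, the neonatal Fc receptor that recycles IgG, was at -0.37 (SE 0.10, adjusted p = 0.0292) per the authors' deposited table. Fcer1g, the shared signalling chain of Fc receptors, was at -0.87 (SE 0.24, adjusted p = 0.03) per the authors' deposited table. Of 20 chemokine receptors, 16 were below 0 (median -0.77). Of 35 chemokine ligands, 33 were below 0 (median -0.60), and of 12 Toll-like receptors all were (median -0.56). Each of these had a single call with an SE above 1, Ccl22 at -6.43 (SE 1.70) and Tlr11 at -4.99 (SE 1.33) per the authors' deposited table, and 0 calls when genes with an SE above 1 were left out.

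The lectin families had low medians and no calls in DESeq2. Of 23 killer cell lectin-like receptors, 22 were below 0, the median was -1.87 and the median SE 1.54, and 5 were lower at an unadjusted p under 0.05. Klrk1, which encodes the activating receptor NKG2D, was at -2.34 (SE 0.80, adjusted p = 0.129) per the authors' deposited table. Among the 5 of these whose SE did not exceed 1, the median was -0.89. Of 31 C-type lectins, 25 were below 0 (median -0.72) and 8 were lower at an unadjusted p under 0.05. Clec4a1, a lectin of myeloid cells, was at -1.42 (SE 0.44, adjusted p = 0.0772) per the authors' deposited table.

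Marker genes of leukocytes were mostly below 0 in this comparison. Of 22 macrophage genes 8 fell and all were below 0 (median -0.92). Of 5 T and NK cell markers, 2 fell, Ncr1 and Gzma, and the median was -2.22, with Cd8a at 0.02 (SE 0.37) per the authors' deposited table. The 4 B and plasma cell markers (median -1.49) and the 4 neutrophil markers (median -1.59) were all below 0, with none called by DESeq2 and 1 in each list lower at an unadjusted p under 0.05. The summed level of these lists per group was not analysed here, and their part in the falls of the interferon, class I and receptor families was not tested.

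**Figure D3:**
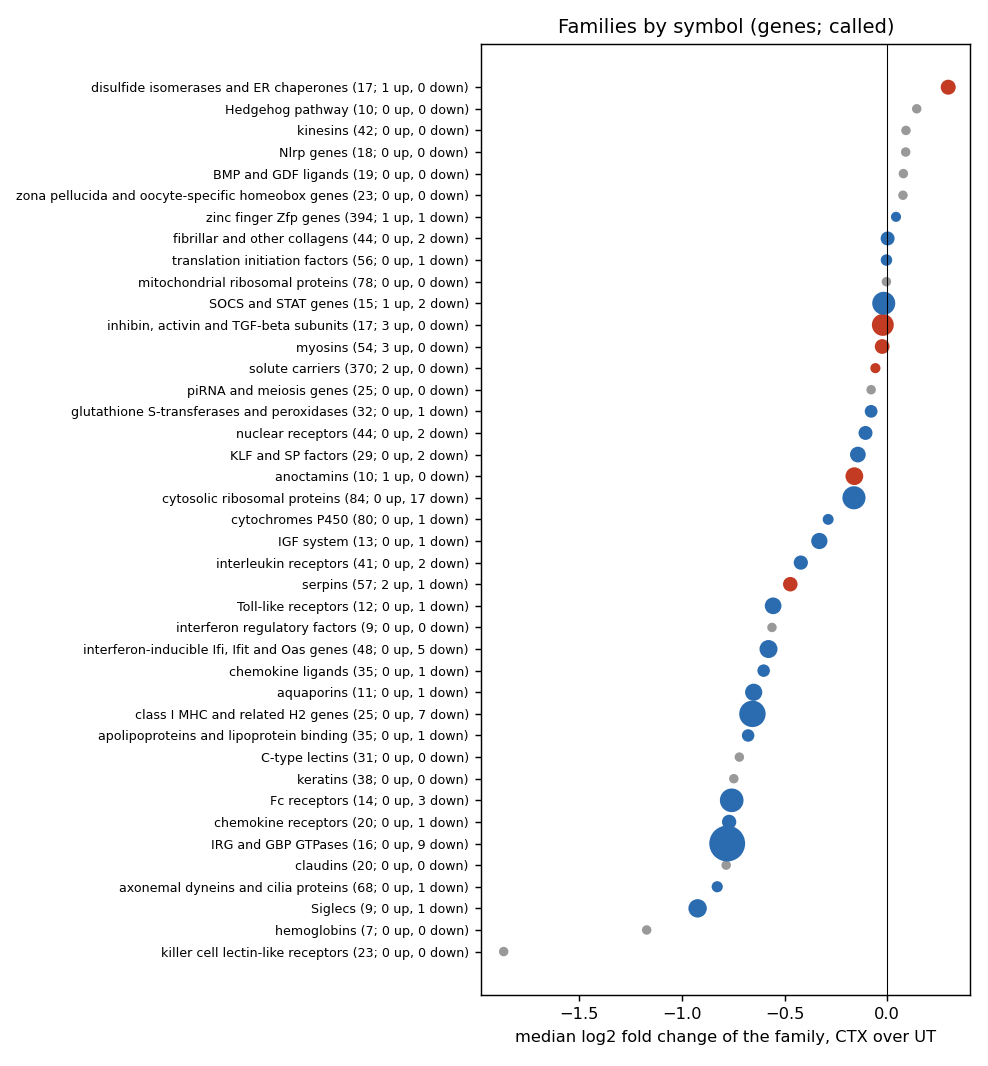
Median log2 fold change of CTX over UT (horizontal axis) of each of the 41 families described, with the number of measured genes and of called genes in each label; larger points have a larger share called, blue and red mark families with calls mostly lower or mostly higher, and grey those without calls. The median is highest for ER chaperones at 0.30 and lowest for killer cell lectin-like receptors at -1.87, and the largest share called is that of the IRG and GBP genes.

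Genes of cytosolic ribosomal proteins were slightly lower as a group, with small errors. Ribosomal proteins are made in fixed proportion from short, abundant mRNAs. Of 84 such genes, 17 fell (20.2%, against 0.82% of all genes), 0 rose and 79 were below 0, with a median of -0.16 and a median SE of 0.07. The called gene nearest to 0 fell by 11.1%, and the called gene farthest from it fell by 23.7%. At an unadjusted p under 0.05, 55 of the 84 were lower and 1 higher. Genes of both subunits were called, 10 of 52 genes of the large and 7 of 32 of the small. Rps12 was at -0.30 (SE 0.07, adjusted p = 0.00272), Rpl35a at -0.23 (SE 0.05, adjusted p = 0.00589) and Rpl31 at -0.20 (SE 0.05, adjusted p = 0.00613) per the authors' deposited table. With all genes centred at a median of 0, 7 of the 84 fell and 79 were still below 0. Many ribosomal protein genes have processed pseudogenes to which reads can map, so single values are uncertain.

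**Figure D4:**
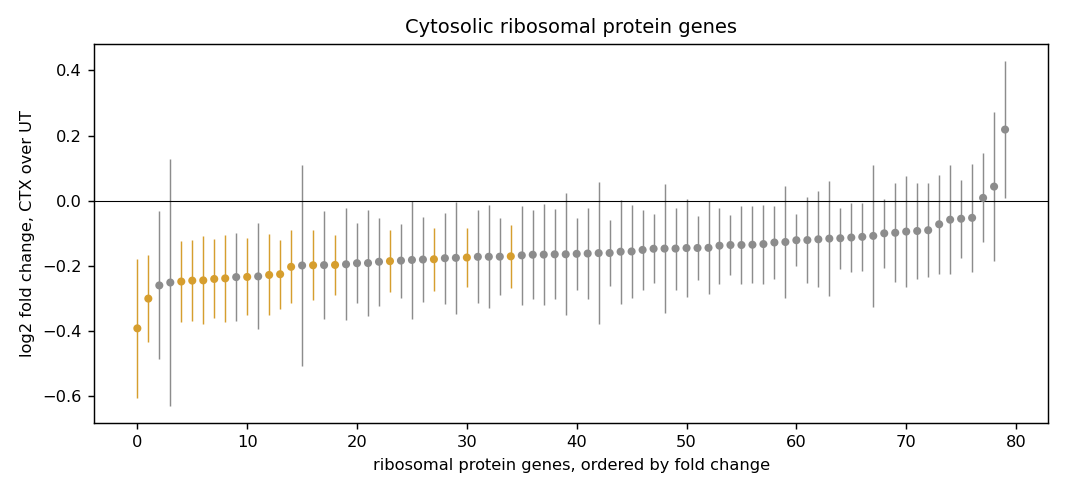
Log2 fold change of CTX over UT (vertical axis) with 95% intervals from the implied standard error, for the 80 of 84 cytosolic ribosomal protein genes with a standard error of at most 0.3, ordered by value; yellow marks the 17 called genes. Nearly all points lie below 0, most of them between -0.3 and 0, and the called genes are spread among uncalled genes of like size.

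Related parts of the translation machinery held few calls, 1.79% of initiation factor genes and none of the mitochondrial ribosomal ones, against 1.29% of all genes. The 78 mitochondrial ribosomal protein genes had a median of 0.00 and no call in DESeq2, with 1 higher and 0 lower at an unadjusted p under 0.05. Of 56 translation initiation factor genes, Eif1, which helps select the start codon, fell, at -0.27 (SE 0.07, adjusted p = 0.0166) per the authors' deposited table. Fau, which encodes a ribosomal protein fused to a ubiquitin-like protein, was at -0.26 (SE 0.07), and Tpt1, whose mRNA is controlled with those of ribosomal proteins, at -0.18 (SE 0.05) per the authors' deposited table, both named after their values were seen. Among genes with an SE up to 0.1, 16 of 71 ribosomal protein genes fell, and 16 of the 2568 others (0.623%). These sets were not matched for SE within that limit. With an SE up to 0.06, 8 of 23 ribosomal protein genes fell, and 4 of the 72 others (5.56%).

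Ribosomal protein mRNAs are short, and fold changes moved with transcript length. Among 11182 genes whose SE did not exceed 0.3 and that had a transcript length in the GENCODE annotation, split into 10 bins of equal size, the bin with the shortest transcripts had a median of -0.04 and the bin with the longest 0.05. The shortest bin held 29 genes that fell and 1 that rose, and the longest 6 that fell and 23 that rose. Without the ribosomal protein genes, the median of the shortest bin was -0.03 and 14 of its genes fell. Genes called higher had a median transcript length of 4752 bases and genes called lower 2590, against 2904.5 for all genes and 937 for ribosomal protein genes. By GC content, the medians ran from 0.05 in the lowest bin to -0.03 in the highest. The 78 mitochondrial ribosomal protein genes, with a median length of 1327.5 bases, had the median of 0.00 given above. The part of length and GC content in the fall of ribosomal protein genes was not tested.

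**Figure D5:**
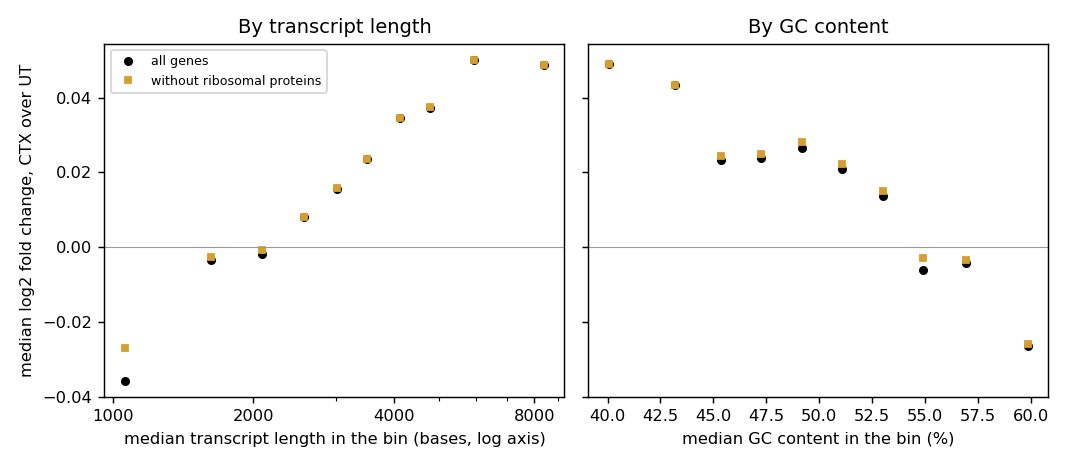
Median log2 fold change of CTX over UT (vertical axis) in 10 equal bins of 11182 precisely measured genes by transcript length (left, log axis) and by GC content (right), for all genes (black circles) and without cytosolic ribosomal protein genes (yellow squares). Medians rise from -0.04 to 0.05 with length and fall from 0.05 to -0.03 with GC content, and leaving out ribosomal protein genes moves mainly the shortest bin.

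Chaperones of the endoplasmic reticulum (ER) leaned the other way. These proteins fold and disulfide-bond secreted proteins, and cells raise them together when unfolded proteins build up. Of 17 such genes, 1 rose (5.88%, against 0.472% of all genes), 16 were above 0 and the median was 0.30. At an unadjusted p under 0.05, 13 were higher. The call was Pdia4, a protein disulfide isomerase, at 0.49 (SE 0.13, adjusted p = 0.0146) per the authors' deposited table. Hspa5, the ER chaperone BiP, was at 0.50 (SE 0.16, adjusted p = 0.0804) and Hsp90b1, which encodes GRP94, at 0.46 (SE 0.14, adjusted p = 0.0546) per the authors' deposited table, both named after their values were seen. With all genes centred in that way, 3 of the 17 rose.

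Promoters of ER chaperones are known for ER stress elements that begin with CCAAT, the motif bound by NF-Y, and 3 are shown for the genes just named. Among genes with a window, CCAAT or its complement ATTGG was held by 14 of 15 of this family (93.3%) and by 42.4% of all genes tested. It was held by 65.2% of genes called higher and by 42.5% of those called lower. The H2 genes outside class II, with 7 falls and 0 rises, held it in 15 of 18 (83.3%). The 100 bases before the start follow, 5′ to 3′ on the gene's strand, with the motif in capitals.
Pdia4: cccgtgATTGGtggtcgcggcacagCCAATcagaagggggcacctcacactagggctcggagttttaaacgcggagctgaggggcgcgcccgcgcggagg
Hspa5: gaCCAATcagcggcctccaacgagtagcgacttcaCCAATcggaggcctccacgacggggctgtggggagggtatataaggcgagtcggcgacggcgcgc
Hsp90b1: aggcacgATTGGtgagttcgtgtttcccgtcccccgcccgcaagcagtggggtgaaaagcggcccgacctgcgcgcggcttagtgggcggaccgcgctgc
These lie at chr6:47813513-47813612, reverse strand (Pdia4), chr2:34771990-34772089, forward strand (Hspa5) and chr10:86705445-86705544, reverse strand (Hsp90b1) on GRCm38.p6. Pdia4 and Hspa5 each hold 2 copies in the stretch shown and Hsp90b1 holds 1. The first copy shown begins 94 bases before the start in Pdia4, 98 in Hspa5 and 93 in Hsp90b1. A match of 5 letters is common, as the share over all genes shows, and describes the window only.

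The activin subunit genes Inhba and Inhbb and the inhibitor genes Fst and Grem1, all of TGF-beta family signalling, which granulosa cells and oocytes use to control follicle growth, rose. Activins are dimers of inhibin beta subunits and stimulate release of follicle-stimulating hormone, follistatin binds and neutralises them, and gremlins do the same to BMPs. Of 17 inhibin, activin and TGF-beta genes, 3 rose (17.6%, against 0.472% of all genes), and the median was -0.02. Inhba, the beta A subunit, was at 1.20 (SE 0.32, adjusted p = 0.0186) per the authors' deposited table, a 2.29-fold rise. Inhbb, the beta B subunit, rose by 1.00 (SE 0.21), and Fst, follistatin, by 0.67 (SE 0.15) per the authors' deposited table.

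The BMP inhibitors, a small family added after its values were seen, did not all go one way. Within the DAN family, Grem1 rose, at 1.27 (SE 0.33, adjusted p = 0.015) per the authors' deposited table. Nbl1, the founding member of that family, fell, at -0.83 (SE 0.21, adjusted p = 0.0143) per the authors' deposited table. None of the 19 BMP and GDF ligands passed in DESeq2 (median 0.08, with 2 higher and 0 lower at an unadjusted p under 0.05). The oocyte ligand Bmp15 came closest, at 0.34 (SE 0.12, adjusted p = 0.141) per the authors' deposited table. The list of 6 granulosa markers lay above 0 throughout (median 0.43), with none called by DESeq2 and 2 higher at an unadjusted p under 0.05, and its part in these rises was not tested.

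Other growth factor families had few calls in number, which for the IGF system was 7.69% of its genes, against 1.29% of all genes. Of 13 genes of the IGF system 9 were below 0 (median -0.33), and the call was Igfbp3, which binds insulin-like growth factors, at -1.54 (SE 0.41) per the authors' deposited table. Of 10 Hedgehog pathway genes none passed in DESeq2, 9 were above 0 (median 0.14) and 4 were higher at an unadjusted p under 0.05. Hhip, a Hedgehog-binding inhibitor and target gene, was at 0.71 (SE 0.22, adjusted p = 0.0772), and the ligand Ihh, made by granulosa cells, at 0.57 (SE 0.18, adjusted p = 0.084) per the authors' deposited table.

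Some genes of the cytoskeleton rose. Among unconventional myosins, the rises included the single-headed motor Myo1e at 0.29 (SE 0.06, adjusted p = 0.00048) and the minus-end motor Myo6 at 0.32 (SE 0.09, adjusted p = 0.0214) per the authors' deposited table. None of 30 conventional myosin chains was called by DESeq2, with 0 higher and 1 lower at an unadjusted p under 0.05. Dock4, an activator of Rac, was at 0.44 (SE 0.08, adjusted p = 4.17e-05) per the authors' deposited table. Of 42 kinesins none passed in DESeq2, and 10 were higher and 1 lower at an unadjusted p under 0.05. Kif20b, a kinesin of cytokinesis, stood just outside the threshold at 0.46 (SE 0.14, adjusted p = 0.0507) per the authors' deposited table.

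Families of epithelia and cilia had low medians, large errors and 1 call. Of 68 axonemal dynein and cilia genes, 61 were below 0, with a median of -0.83 and a median SE of 1.05. The share called was 1.47%, near the 1.29% of all genes. Cfap53, which encodes a protein of cilia and centrioles, fell, at -0.78 (SE 0.18, adjusted p = 0.00237) per the authors' deposited table, and it was the only member lower at an unadjusted p under 0.05, while 1 was higher. Among the 32 whose SE did not exceed 1 the median was -0.26. None of 38 keratins (median -0.75, median SE 1.87) or 20 claudins (median -0.78, median SE 1.13) passed in DESeq2, with 2 and 3 lower and 0 higher at an unadjusted p under 0.05. Among those whose SE did not exceed 1, the median was -0.33 for 14 keratins and -0.81 for 9 claudins. Krt7 was at -1.51 (SE 0.68, adjusted p = 0.379) and Krt19 at -1.79 (SE 0.87, adjusted p = 0.453) per the authors' deposited table. Of 5 surface epithelium markers, which include these 2 keratins, 2 fell, Upk3b and Lrrn4, and all were below 0 (median -1.51). The 4 oviduct epithelium markers (median -2.14, median SE 1.49) and the 5 adipocyte markers (median -1.54) were below 0 as well, with none called and with 1 and 2 lower at an unadjusted p under 0.05. The amount of surface epithelium, oviduct and fat taken with each ovary was not analysed here, and its part in these medians was not tested.

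Collagens and serpins held few calls in number, 4.55% and 5.26% of their genes, against 1.29% of all genes. Of 44 collagen genes 2 fell, Col9a2 and Col15a1, a basement membrane collagen, the latter at -0.48 (SE 0.12, adjusted p = 0.015) per the authors' deposited table, while the family median was 0.00. Of 57 serpins, inhibitors of serine proteases, 2 rose and 1 fell, 41 were below 0 and the median was -0.47 (-0.30 among those whose SE did not exceed 1). Serpina3a was at 0.61 (SE 0.11, adjusted p = 1.11e-05) and Serpine2, a thrombin and plasminogen activator inhibitor made in follicles, at 0.35 (SE 0.09, adjusted p = 0.0147) per the authors' deposited table. Serping1, the inhibitor of complement C1, was at -0.57 (SE 0.15, adjusted p = 0.0208) per the authors' deposited table.

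Transport and metabolic families held scattered calls. Of 370 solute carriers 2 rose, Slc26a7, an anion exchanger, at 0.52 (SE 0.10, adjusted p = 0.000175) and Slc39a10, a zinc importer, at 0.50 (SE 0.11, adjusted p = 0.00114) per the authors' deposited table. That share is near the 0.472% of all genes called higher. Ano3 was the call among 10 anoctamins (10%) and Aqp1 that among 11 aquaporins (9.09%), against 1.29% of all genes, and each share rests on 1 gene. Of the aquaporins, 10 were below 0 (median -0.65). Of 35 genes of apolipoproteins and like symbols, only Apoe was called, a fall (2.86%, against 1.29% of all genes), 28 were below 0 and the median was -0.68. Of 32 glutathione S-transferases and peroxidases, which include enzymes that conjugate metabolites of cyclophosphamide, only Gpx3 was called, a fall. That is 3.12% of the family, and its median was -0.08. Of 80 cytochromes P450, the family that activates the drug in liver, Cyp27a1, a sterol 27-hydroxylase, fell, at -0.69 (SE 0.14, adjusted p = 0.000199) per the authors' deposited table. That is 1.25% of the family, near the 1.29% of all genes called. The family median was -0.29 with a median SE of 1.25.

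Among transcription factors, calls were few in number and mostly falls. The share called was 4.55% for nuclear receptors, 6.9% for KLF and SP factors and 0.508% for Zfp genes, against 1.29% of all genes. Of 44 nuclear receptors 2 fell. Nr4a3, an immediate early orphan receptor, was at -1.73 (SE 0.42, adjusted p = 0.00805) per the authors' deposited table, and Nr1d1, the clock repressor Rev-erb alpha, at -0.78 (SE 0.22, adjusted p = 0.0409) per the authors' deposited table. Klf2, a flow-induced factor of endothelium and T cells, was at -0.75 (SE 0.19, adjusted p = 0.0111) per the authors' deposited table and the call among 17 Klf genes, of which 5 were lower and 1 higher at an unadjusted p under 0.05. The 4 endothelial markers had a median of -0.14, with none called and 1 lower at an unadjusted p under 0.05. Sp100, a nuclear body protein that the symbol pattern for SP factors takes in, was at -0.63 (SE 0.17, adjusted p = 0.0218) per the authors' deposited table. Of 394 Zfp zinc finger genes 1 rose and 1 fell, and 252 were above 0 (median 0.04). These were Zfp395 at 0.37 (SE 0.09) and Zfp729a at -0.61 (SE 0.17) per the authors' deposited table.

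No oocyte family held a called gene in DESeq2. With 1.29% of all genes called, an absence of calls is close to that share in families of 18 to 25 genes. Of 18 Nlrp genes, many of which serve the oocyte's subcortical complex, 12 were above 0 (median 0.09), with 1 higher and 0 lower at an unadjusted p under 0.05. Of 23 zona pellucida and oocyte homeobox genes, 14 were above 0 (median 0.08), with 2 higher and 0 lower by that measure. Of 25 piRNA and meiosis genes, 18 were below 0 (median -0.08), with 0 higher and 2 lower. The 5 oocyte markers had a median of 0.12 with none called or past an unadjusted p of 0.05. The median SE of these families lay between 0.18 and 0.31, so that differences of that size in single genes could not be told from 0. Of 7 hemoglobin genes 6 were below 0 (median -1.17, median SE 0.65), with none called in DESeq2 and 2 lower at an unadjusted p under 0.05.

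The table also compares ovaries of mice labelled with caulerpin (CAU), an indole alkaloid of green algae, with both groups. These comparisons share the CTX or the UT libraries with the one above, so the values are set side by side only. For Tgtp1 the authors' deposited table gives -1.95 for CTX over UT, 1.51 for CAU over CTX (adjusted p = 0.039) and -0.43 for CAU over UT. For Mfsd2a it gives 1.01, -0.63 (adjusted p = 0.0058) and 0.38, and for Col9a2 -0.95, 1.04 (adjusted p = 1.5e-14) and 0.10, per the authors' deposited table. For Pdia4 the values per the authors' deposited table are 0.49, 0.12 and 0.61 (adjusted p = 0.0073). For Cish they are -1.01, -0.31 and -1.31 (adjusted p = 0.00012) per the authors' deposited table. Tgtp1, Mfsd2a and Col9a2 thus passed in CTX over UT and in CAU over CTX, and Pdia4 and Cish in both comparisons with UT. These are examples, and how many of the called genes passed in a second comparison was not counted. In CAU over CTX, Iigp1 at 1.10 (adjusted p = 0.408), H2-K1 at 0.39 (adjusted p = 0.928) and Rps12 at 0.27 (adjusted p = 0.432) did not pass, per the authors' deposited table.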

How the data were processed

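RNA-seq libraries of ovarian tissue were compared between 3 CTX and 3 UT samples, grouped by title and treatment label. Per the labels' protocols, a column kit gave the RNA and a SMARTer mRNA kit the libraries. Tools of the authors named in the submitters' processing notes are DESeq2 1.44.0, RSEM 1.3.1, Bowtie2 and HISAT2, with the mouse build GRCm38.p6, and no roles are given. Strand setting, filters and covariates: not given in the sources used here. Per the file headers, the authors deposited a p-value and a q-value from DESeq2, the latter here called adjusted p, and a log2 fold change for each pair of groups. The deposited q-value differed by at most 1.09e-05 from a Benjamini-Hochberg adjustment recomputed over 19260 genes. The 257 genes without a value were left out.

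The implied standard error was computed as the size of the log2 fold change over the normal quantile of the 2-sided p-value, which takes the test to be an unshrunken Wald test. The 95% intervals are normal. A count test, values per library and depth per library were not possible, because the table holds none, so the DESeq2 result deposited by the authors is the test.

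Families were 104 patterns on the gene symbol, of which 41 are described. Genes of 4 lists (macrophage, MHC class II, p53, cell cycle) were left out of families. Families were described by counts of called genes and medians beside those over all genes, with no test of the list. Counts at an unadjusted p under 0.05 had no count over all genes beside them. The families, lists, markers and rules were chosen with earlier results of these data known. Named genes are the 15 smallest p-values in each direction (outside the 4 lists, implied standard error at most 1, no predicted, LOC or Rik symbols), up to 4 called members of each described family or up to 3 uncalled ones, and markers as ranges. A few results that the rule would name are not reported here. Others are said to be outside the rule, or belong to small groups given in full. Transcript lengths and gene positions came from GENCODE vM21 (GRCm38), matched by symbol for 94.3% of genes, and promoters from RefSeq. Of 6 motifs searched, the 2 printed are given. Scripts were tested on simulated data. Software was scipy 1.17.1, pandas 2.3.3, matplotlib 3.10.9, numpy 2.4.6 and Python 3.11.15. Alternatives were other thresholds, a fold minimum, a limit on the standard error, centring and leaving out predicted genes.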

Additional observations from a re-analysis of the deposited data

How the results depend on the processing

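No paired analysis was possible because the deposited table holds no value per library. For the same reason the fits with a replicate block and without each replicate in turn were not run. An adjusted p under 0.01 left 117 calls, 44 higher and 73 lower, and under 0.1 gave 415, 176 higher and 239 lower. A fold of at least 2 left 75, 10 higher and 65 lower. Centring all genes at a median of 0 gave 290 calls, 156 of them higher; 225 genes were called both ways, and ribosomal protein calls went from 17 to 7. Precise genes, with a standard error of at most 0.3, had a median of 0.02, so that setting moves them further from 0.

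Under an adjusted p of 0.1, called members numbered 11 class I genes, 5 ER chaperones, 6 solute carriers, 3 chemokine ligands, 3 kinesins, and 2 each of interferon regulatory factors, C-type lectins, Hedgehog genes, cilia genes and cytochromes P450. With only genes of a standard error of at most 1, they numbered 0 Toll-like receptors, 0 chemokine ligands, 2 ER chaperones, 4 solute carriers, 2 cytochromes P450 and 1 kinesin. With the median set to 0 they were 3 ER chaperones, 4 solute carriers, 2 cilia genes and 2 kinesins. The other family counts stayed within 1.5 times under these settings, all 41 medians moved by less than the median standard error of their genes, and all 107 named genes kept their sign; Stat3 (-0.36) no longer passed with the median set to 0, and Kif20b (0.49) and Kif26a (0.41) then did.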

Other observations

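Called genes outside every family and list, named here after their values were seen, included several secreted or signalling proteins of the ovary that rose. Nppc, the C-type natriuretic peptide by which granulosa cells hold the oocyte in meiotic arrest, was at 0.95 (SE 0.26) per the authors' deposited table. Stc1, a secreted glycoprotein hormone, was at 0.90 (SE 0.26), and Scube1, a secreted or membrane-bound protein with EGF-like repeats, at 0.66 (SE 0.16) per the authors' deposited table. The nuclear export receptor gene Xpo1 rose by 0.47 (SE 0.11) and Polr2a, the largest subunit of RNA polymerase II, by 0.35 (SE 0.08) per the authors' deposited table. Condensin and cohesin subunits outside the SMC genes were all above 0, 9 of 9 (median 0.24), with none called by DESeq2 and 6 higher at an unadjusted p under 0.05.

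Genes of leukocyte signalling and interferon response also fell outside the families. Ptprc, the common leukocyte antigen CD45, was at -1.46 (SE 0.33), and Coro1a, an actin regulator of leukocytes, at -1.69 (SE 0.33) per the authors' deposited table. Zbp1, a sensor of left-handed nucleic acids induced by interferon, was at -1.60 (SE 0.31), and Uba7, which activates the ubiquitin-like protein ISG15, at -0.44 (SE 0.12) per the authors' deposited table. Of 8 Gimap genes, GTPases of lymphocytes and endothelium, Gimap3 fell, at -1.54 (SE 0.33) per the authors' deposited table, and 7 were below 0 (median -0.33). Tsc22d3, a glucocorticoid-induced gene, was at -0.40 (SE 0.10) per the authors' deposited table.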
